A study of Homo sapiens with 6 samples.

Results

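The autophagy core machinery and its cargo receptors were examined as a set of 41 listed genes among the 60658 Ensembl identifiers of the series. Every listed gene was matched by its current symbol. The set held 5 genes of the ULK initiation complex, 6 of the PI3K nucleation complexes, 6 for membrane supply and PI3P effectors, 10 conjugation enzymes, 5 ATG8 genes, 8 receptors and the fusion protein STX17. RNA came from 2 human prostate cancer cell lines that resist enzalutamide, an androgen receptor antagonist. C4-2B MDVR, derived from C4-2B of the LNCaP lineage, was grown with 20 µM enzalutamide in the medium, and CWR22Rv1 in the same medium without it. Cells of either line received vehicle (DMSO), 10 µM APO (apoptozole) or 10 µM VER (VER155008) for 48 h. APO and VER are small molecules that block the ATPase activity of the chaperone HSP70. The titles of the first 3 libraries name C4-2B MDVR, but their labels list LNCaP-C4-2B as the source and a parental line as the cell type.

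Each of the 6 conditions is represented by a single library, so no difference below has a replicate check, an error or a test. Values are FPKM, fragment numbers corrected for the length of the transcript and the size of the library. Levels are given in the order DMSO, APO, VER. Changes are differences of log2(FPKM + 0.1) between 2 libraries, a measure that understates the changes of genes near 0.1 FPKM. A gene is said to have risen or fallen when it passed 1.2-fold, the threshold of the study, which is 0.26 on the log2 scale. A change past 2-fold is named as such. APO and VER were compared with the same DMSO library of a line, so an error in that library enters both contrasts.

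Autophagy encloses cytoplasm in a membrane and delivers it to the lysosome. The ULK kinase complex starts the process, a lipid kinase complex around PIK3C3 marks the membrane with PI3P, and conjugation enzymes attach the small proteins of the ATG8 family (LC3 and GABARAP proteins) to the growing membrane. Receptors bind cargo and ATG8 proteins at once and are themselves degraded in the lysosome. Prostate cancer cells use autophagy under nutrient, hypoxic and proteotoxic stress.

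All 41 genes passed 0.1 FPKM in at least 1 library of each line and were compared in both lines, and 38 reached 1 FPKM in every library. The exceptions were MAP1LC3A and FUNDC1 in C4-2B MDVR and OPTN in CWR22Rv1 cells. More autophagy genes rose than fell in each of the 4 contrasts with DMSO. With APO in C4-2B MDVR cells 29 of the 41 genes (70.7%) rose and 4 (9.76%) fell, where 37.7% of the 20122 genes compared rose and 35.4% fell. With VER in the same cells 26 (63.4%) rose and 5 (12.2%) fell, against 35.6% and 34.9% of all genes. In CWR22Rv1 cells 29 (70.7%) rose and 6 (14.6%) fell with APO, against 35.6% and 39.2% of 21608 genes. With VER 18 (43.9%) rose and 4 (9.76%) fell, against 32.1% and 32.3%. The genes that fell were ULK1, AMBRA1, ATG4C and BNIP3 with APO in C4-2B MDVR cells, and ULK2, PIK3R4, AMBRA1 and ATG4C with VER, where FUNDC1 was the fifth because it was listed at 0. They were ULK1, PIK3C3, PIK3R4, AMBRA1, ATG9A and BNIP3 with APO in CWR22Rv1 cells, and PIK3R4, AMBRA1, ATG4B and BNIP3 with VER.

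The count of 29 against 4 with APO in C4-2B MDVR cells depended on the scale of the libraries. It became 21 against 6 when each library was set to the same sum of FPKM (TPM), and the same with mitochondrial genes left out of that sum. The median of genes above 1 FPKM then lay at -0.12 and -0.14 on the log2 scale, against 0.02 as deposited. PIK3C3, ATG14, WIPI2, ATG4B, ATG5, ATG16L1, GABARAP and STX17 no longer passed 1.2-fold with APO in these cells on either scale. For APO in CWR22Rv1 cells the counts were 31 against 5 at TPM and 26 against 7 without mitochondrial genes, with the median of genes above 1 FPKM at 0.10 and -0.16. The differences in RNA amount between cells and in cell numbers cannot be told apart in such bulk libraries.

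None of the 41 genes fell past 2-fold, FUNDC1 aside where it was listed at 0. Past 2-fold, C4-2B MDVR cells had 9 genes up with APO, CALCOCO2 just at 2.00-fold, and 8 with VER, where 15.4% and 14.4% of all genes rose and 13.3% fell with either inhibitor. In CWR22Rv1 cells 10 rose with APO and 2 with VER, where 13.8% and 10.8% of all genes rose and 16.8% and 8.92% fell. These 2-fold counts came to 22.0%, 19.5%, 24.4% and 4.88% of the 41 genes in that order. The last was below the 10.8% of all genes, which include genes of low level. Of the genes whose highest value in a line passed 1 FPKM, 11.4%, 11.0%, 10.8% and 6.36% rose past 2-fold. On that basis 9.82%, 9.56%, 13.4% and 4.66% fell past 2-fold. The 4.88% with VER in CWR22Rv1 cells was thus closer to the share of these better expressed genes.

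**Figure D1:**
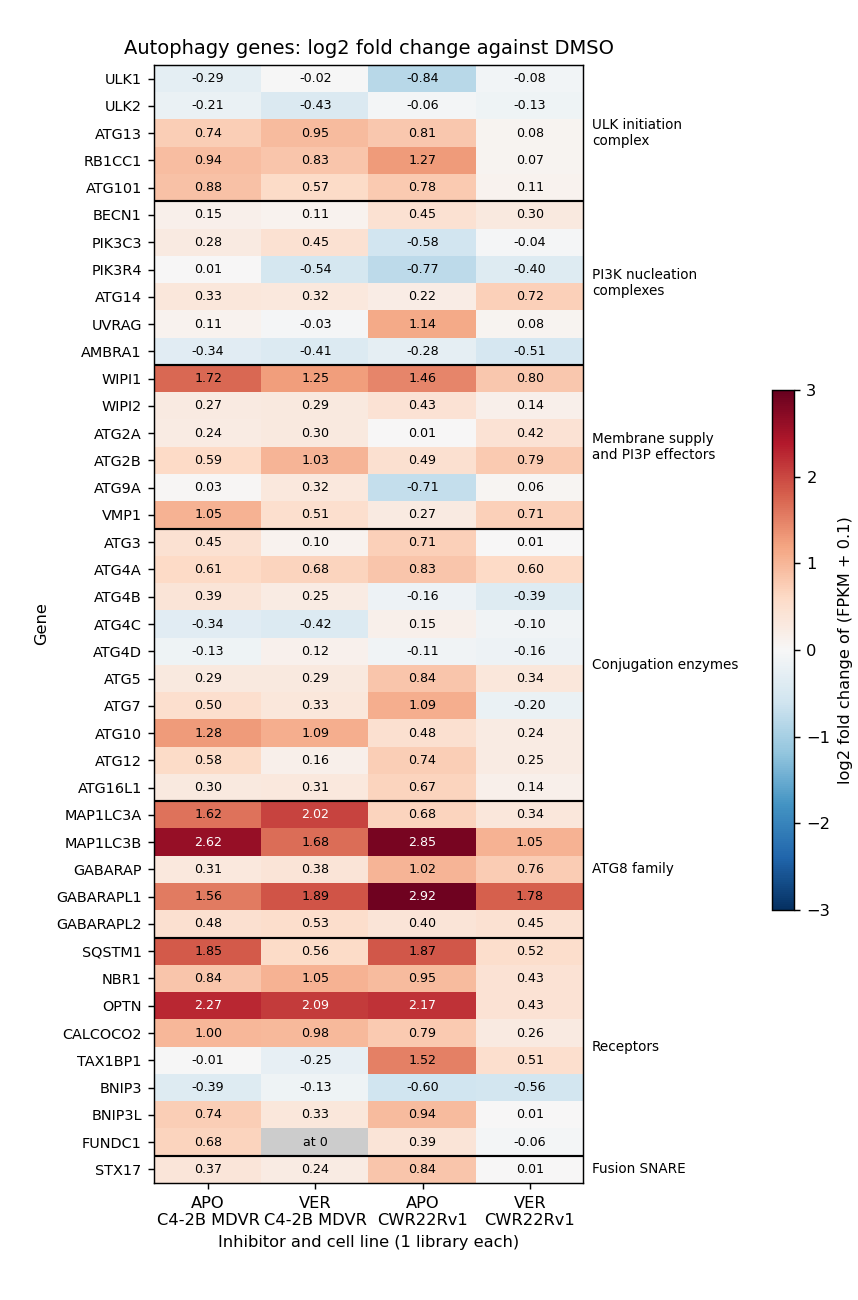
Log2 fold changes of FPKM + 0.1 against DMSO for the 41 autophagy genes (rows, by role) in the 4 contrasts (columns), red for higher and blue for lower, with the value in each cell and FUNDC1 greyed where it was listed at 0. The darkest red cells are MAP1LC3B and GABARAPL1 with APO in CWR22Rv1 cells, at 2.85 and 2.92, and the lowest value is -0.84 for ULK1 in the same contrast.

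In all 4 contrasts 14 of the 41 genes rose, where 9.59% of the 18059 genes compared in both lines did. They were WIPI1, ATG2B, VMP1, ATG4A, ATG5, the 5 ATG8 genes, SQSTM1, NBR1, OPTN and CALCOCO2. Other scales or pseudocounts took 1 contrast below 1.2-fold for VMP1, ATG5, GABARAP, GABARAPL2, CALCOCO2 and OPTN, and left the other 8 past it. GABARAP also lost the call with VER in CWR22Rv1 cells when it was summed with the overlapping gene AC120057.2 described below. Only MAP1LC3B and GABARAPL1 rose past 2-fold in all 4 contrasts, where 1.33% of all genes did. AMBRA1 was the single gene that fell in all 4 (11.3% of all genes did), and with APO in CWR22Rv1 cells it no longer passed at TPM (-0.17) or with a pseudocount of 1 (-0.25). ATG4D was the single gene within 1.2-fold of DMSO in all 4 as deposited, with -0.28 at TPM for APO in C4-2B MDVR cells.

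In the ULK initiation complex the kinases and their partners moved apart. ATG13, RB1CC1 (FIP200) and ATG101, the scaffold subunits, rose with APO in both lines and in C4-2B MDVR cells with VER, whereas none of the 5 genes passed 1.2-fold with VER in CWR22Rv1 cells. RB1CC1, the large scaffold that holds the complex together, was at 17.6, 33.8 and 31.4 FPKM in C4-2B MDVR cells and at 14.9, 36.0 and 15.7 FPKM in CWR22Rv1 cells. The VER library of CWR22Rv1 was thus close to DMSO while the APO library was 2.41-fold higher. ATG13, which links the kinase to the scaffold, had changes of 0.74 (APO) and 0.95 (VER) on the log2 scale in C4-2B MDVR cells, and of 0.81 and 0.08 in CWR22Rv1 cells. ATG101, the partner of ATG13, had 0.88 and 0.57, then 0.78 and 0.11.

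The kinase genes did not rise in any contrast. ULK1 was at 22.5, 18.4 and 22.2 FPKM in C4-2B MDVR cells and at 30.6, 17.0 and 28.9 FPKM in CWR22Rv1 cells. It was lowest with APO in both lines, with log2 fold changes of -0.29 and -0.84, and at -0.02 and -0.08 with VER. ULK2, its paralog, lay between 5.79 and 7.84 FPKM in the 6 libraries and passed 1.2-fold as deposited in the C4-2B MDVR contrast with VER, at -0.43, and at TPM also in that with APO, at -0.36.

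The PI3K nucleation genes showed no common direction. Of the 6, between 1 and 3 fell and 2 rose in each contrast, and the group medians lay between -0.03 and 0.13 on the log2 scale. PIK3C3, the lipid kinase VPS34, was at 6.18, 7.53 and 8.50 FPKM in C4-2B MDVR cells and at 9.11, 6.07 and 8.86 FPKM in CWR22Rv1 cells. It rose with APO in the first line, at 0.28, and fell in the second, at -0.58. PIK3R4, the VPS15 subunit that holds the kinase, fell in 3 contrasts, at -0.77 (APO) and -0.40 (VER) in CWR22Rv1 cells and at -0.54 for VER in C4-2B MDVR cells, and stood at 0.01 for APO in the latter. AMBRA1, a regulator of the complex, had -0.34 and -0.41 in C4-2B MDVR cells and -0.28 and -0.51 in CWR22Rv1 cells.

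UVRAG, the subunit of the PI3K complex that acts in endosomal and later autophagic steps, was at 5.19, 5.62 and 5.10 FPKM in C4-2B MDVR cells and at 2.33, 5.27 and 2.47 FPKM in CWR22Rv1 cells. Only the APO library of CWR22Rv1 stood apart from its DMSO library, 2.21-fold higher, and it lay within the range of the C4-2B MDVR libraries. ATG14, the subunit that directs the kinase to the autophagosome, lay between 4.39 and 7.28 FPKM, with its largest log2 fold change, 0.72, with VER in CWR22Rv1 cells. BECN1, the core subunit Beclin 1, rose in CWR22Rv1 cells only, at 0.45 with APO and 0.30 with VER, the latter at 0.24 and 0.23 after rescaling to TPM and to the sum without mitochondrial genes. Its C4-2B MDVR values were 0.15 and 0.11, and the difference between the lines was not tested. CNTD1, on the opposite strand, overlaps 12.4% of the exonic bases of BECN1. It was at 0.517, 0.500 and 1.04 FPKM in C4-2B MDVR cells and at 9.19, 5.90 and 14.8 FPKM in CWR22Rv1 cells. The part of CNTD1 in the BECN1 values was not tested.

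Among the genes for membrane supply, WIPI1 carried the largest changes. WIPI1 (ENSG00000070540, GRCh38 chr17:68420948-68457513, minus strand), a protein that reads PI3P on the early membrane, was at 12.3, 40.7 and 29.3 FPKM in C4-2B MDVR cells and at 3.55, 9.92 and 6.25 FPKM in CWR22Rv1 cells. DMSO was the lowest and APO the highest library of each line, with folds of 3.29 and 2.37 for C4-2B MDVR (APO, then VER) and of 2.74 and 1.74 for CWR22Rv1. ARSG, on the opposite strand, overlaps 24.3% of the exonic bases of WIPI1 and was at 3.06 to 7.43 FPKM, highest in the C4-2B MDVR DMSO library. WIPI2, the paralog that recruits ATG16L1, had log2 fold changes between 0.14 and 0.43.

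VMP1, a membrane protein of the endoplasmic reticulum that moves lipids, was at 75.4, 156 and 108 FPKM in C4-2B MDVR cells and at 46.9, 56.3 and 76.6 FPKM in CWR22Rv1 cells. APO was the highest library in the first line and VER in the second. ATG2B, a lipid transfer protein, was at 4.62, 7.03 and 9.53 FPKM and at 2.86, 4.06 and 5.03 FPKM, so that VER was the highest library in both lines. ATG2A, its paralog, had log2 fold changes between 0.01 and 0.42. ATG9A, the scramblase of the vesicles that seed the membrane, was at 0.03 and 0.32 in C4-2B MDVR cells and at -0.71 and 0.06 in CWR22Rv1 cells. Another annotated gene on the same strand, AC068946.2, covers 38.8% of the exonic bases of ATG9A. AC068946.2 is not among the identifiers of the series, so its part in the ATG9A values was not tested.

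Of the 10 conjugation enzymes, 8 rose under APO and 5 under VER for C4-2B MDVR, and 7 and 2 for CWR22Rv1. ATG7, the activating enzyme for ATG8 and ATG12, was at 15.7, 22.2 and 19.8 FPKM in C4-2B MDVR cells and at 10.2, 21.9 and 8.91 FPKM in CWR22Rv1 cells. APO was the highest library in both lines, and the VER library of CWR22Rv1 was the lowest of all 6. VGLL4, on the opposite strand, overlaps 18.1% of the exonic bases of ATG7 and was at 45.5, 79.9 and 50.6 FPKM and at 24.5, 59.4 and 27.0 FPKM, also highest with APO, and its part in the ATG7 values was not tested. ATG10, which attaches ATG12 to ATG5, was at 2.33, 5.79 and 5.07 FPKM and at 11.3, 15.8 and 13.3 FPKM. Its C4-2B MDVR values lay below all CWR22Rv1 values, and its folds in C4-2B MDVR cells, 2.42 and 2.13, were the largest of the group in that line. ATG10 shares 6.86% of its exonic bases with RPS23 on the opposite strand, a ribosomal protein gene at 1337 to 2226 FPKM, and the part of such reads in its values was not tested.

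ATG5 and ATG16L1, which with ATG12 form the ligase that completes the attachment, had log2 fold changes of 0.29 and 0.30 with APO in C4-2B MDVR cells and of 0.84 and 0.67 in CWR22Rv1 cells. ATG12 was at 14.7, 22.0 and 16.4 FPKM in C4-2B MDVR cells and at 35.9, 59.9 and 42.8 FPKM in CWR22Rv1 cells, with APO the highest library of each line. ATG3, the enzyme that carries ATG8 to the lipid, rose with APO, at 0.45 and 0.71, and was at 0.10 and 0.01 with VER. The ATG4 proteases, which trim ATG8 and later release it from the membrane, differed among themselves. ATG4A rose in all 4 contrasts, at 0.61, 0.68, 0.83 and 0.60. ATG4B had 0.39 and 0.25 in C4-2B MDVR cells and -0.16 and -0.39 in CWR22Rv1 cells. ATG4C fell in C4-2B MDVR cells, at -0.34 and -0.42, and ATG4D lay between -0.16 and 0.12.

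The ATG8 family had the highest group median in each contrast as deposited, and in CWR22Rv1 cells this did not hold with GABARAP and an overlapping gene summed. All 5 genes passed 1.2-fold upward in each contrast as deposited, with GABARAP at 0.16 and 0.15 with APO in C4-2B MDVR cells on the TPM scale and without mitochondrial genes in the sum, and GABARAPL2 at 0.24 with APO in CWR22Rv1 cells on the latter scale. The medians were 1.56 (APO) and 1.68 (VER) for C4-2B MDVR, and 1.02 and 0.76 in CWR22Rv1 cells, beside medians of all genes between -0.01 and 0.00.

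MAP1LC3B (LC3B, ENSG00000140941, chr16:87383995-87404779, plus strand), the LC3 protein most used to follow autophagosomes, was at 18.6, 115 and 60.0 FPKM in C4-2B MDVR cells and at 21.8, 158 and 45.2 FPKM in CWR22Rv1 cells. The DMSO libraries of the lines were close, APO was the highest library in either line, and VER lay between. For C4-2B MDVR the folds were 6.14 (APO) and 3.21 (VER), and for CWR22Rv1 they were 7.20 and 2.07. MAP1LC3B2, a nearly identical copy, made up 2.46% to 7.63% of the sum of both, and the log2 fold changes of that sum were 2.61, 1.66, 2.88 and 1.08.

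GABARAPL1 (ENSG00000139112, chr12:10212458-10223130, plus strand), a protein of the GABARAP branch, was at 13.8, 40.7 and 51.3 FPKM in C4-2B MDVR cells and at 2.50, 19.5 and 8.86 FPKM in CWR22Rv1 cells. VER was the highest library in the first line and APO in the second. The log2 fold changes were 1.56 and 1.89, then 2.92 and 1.78, and the copy GABARAPL3 was listed at 0 in all libraries.

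MAP1LC3A (LC3A, ENSG00000101460, chr20:34546854-34560345, plus strand) was at 0.812, 2.71 and 3.59 FPKM in C4-2B MDVR cells and at 18.4, 29.6 and 23.3 FPKM in CWR22Rv1 cells. All 3 C4-2B MDVR libraries lay below the lowest CWR22Rv1 library. Its log2 fold changes in C4-2B MDVR cells, 1.62 and 2.02, rest on the low DMSO level and became 1.03 and 1.34 with a pseudocount of 1.

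GABARAP (ENSG00000170296, chr17:7240014-7242770, minus strand), the most abundant member, was at 308, 382 and 399 FPKM in C4-2B MDVR cells and at 132, 267 and 223 FPKM in CWR22Rv1 cells. Taken alone, it was lower in the treated CWR22Rv1 libraries than in the C4-2B MDVR DMSO library. AC120057.2, a gene on the same strand that covers 30.5% of the exonic bases of GABARAP, was listed at 14.6, 45.3 and 16.9 FPKM and at 59.1, 79.5 and 1.06 FPKM. With both genes summed, the log2 fold change with VER in CWR22Rv1 cells was 0.23 in place of 0.76 and no longer passed 1.2-fold, and the other 3 were 0.41, 0.37 and 0.86. The summed level with APO in CWR22Rv1 cells, 347 FPKM, was above the 322 FPKM of the C4-2B MDVR DMSO library. GABARAPL2 (ENSG00000034713, chr16:75566351-75577881, plus strand) was at 74.5, 104 and 107 FPKM and at 99.4, 131 and 136 FPKM, with log2 fold changes between 0.40 and 0.53.

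**Figure D2:**
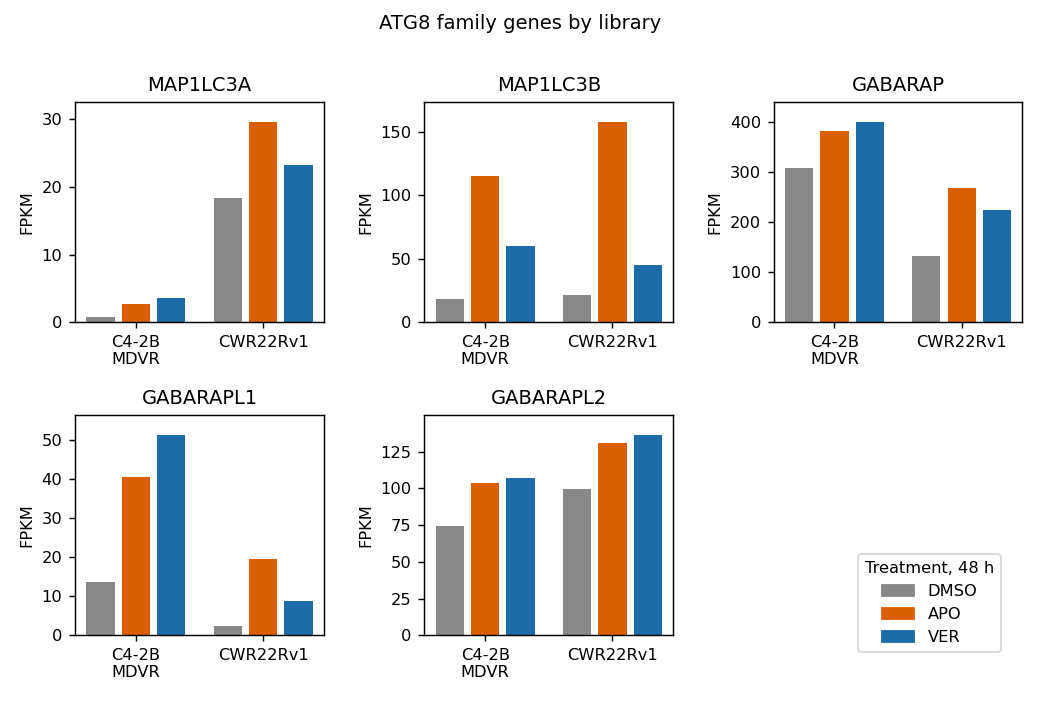
FPKM (linear axes from 0, 1 scale a gene) of the 5 ATG8 genes in the 6 libraries, each bar 1 library with no replicate, grey for DMSO, orange for APO and blue for VER. MAP1LC3B with APO stands at 115 and 158 FPKM above 18.6 and 21.8 with DMSO, and MAP1LC3A is under 4 FPKM in each C4-2B MDVR library.

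FPKM is per transcript length, so the 5 genes can be added. The summed FPKM of the ATG8 family was 415, 644 and 621 in C4-2B MDVR cells and 274, 605 and 437 in CWR22Rv1 cells. With AC120057.2 added it was 430, 689 and 638, then 333, 684 and 438, which took the fold with VER in CWR22Rv1 cells from 1.59 to 1.31. Without that gene, LC3 genes held 4.68%, 18.3% and 10.2% of that sum in C4-2B MDVR cells and 14.7%, 30.9% and 15.7% in CWR22Rv1 cells. MAP1LC3B alone held 4.49%, 17.9% and 9.65%, and 7.96%, 26.0% and 10.4%. GABARAP held the largest share in every library, between 44.2% and 74.1%. By FPKM, MAP1LC3B stood behind GABARAP and GABARAPL2 in both DMSO libraries and behind GABARAP alone in both APO libraries.

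The promoters of these genes were searched for short motifs of stress-responsive factors in RefSeq windows of GRCh38.p14 from 250 bases before to 50 after each start site. Windows were given for 35 of the 41 genes, 43 windows in all, and the motifs were read on both strands. The sites below are shown because they are the matches to the NRF2 core TGACNNNGC, which a window of MAP1LC3B holds, and a match in GABARAPL1 to the cyclic AMP response element TGACGTCA, a motif added after the sequences had been seen. Each is written 5′ to 3′ on the strand of the gene with the match in capitals and 10 bases on either side.
MAP1LC3B: gcgagtcaccTGACCAGGCtgcgggctga
ATG101: tgtgcttctgTGACTACGCggatgttgtg
CALCOCO2: cgctcctgggGCCCGGTCAcctgaacact
GABARAPL1: gctcgcggggTGACGTCAcagcccgacg
The MAP1LC3B match lies 46 to 38 bases before the start site, in chr16:87392280-87392308, where GENCODE 29 places an untranslated exon of 1 longer transcript. The ATG101 match is in chr12:52069848-52069876 and that of CALCOCO2, on the opposite strand, in chr17:48830896-48830924. The GABARAPL1 match lies 30 to 23 bases before the start site, in chr12:10212837-10212864, in an untranslated exon of 3 longer transcripts.

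TGACNNNGC was held by 3 of the 35 genes, where 16.1% of all 27305 genes with a window (13.3% of 35116 windows) held it. The E-box core CACGTG of TFEB and TFE3 was held by 3 (ATG14, ATG3 and BNIP3), against 8.77% of genes (7.26% of windows), and the forkhead motif TGTTTAC by CALCOCO2 alone, against 4.19% (3.42%). The C/EBP-ATF element TGATGNAA of ATF4 and CHOP was in none of the 43 windows, against 4.46% of genes (3.62% of windows), and TGACGTCA in 1 gene, against 2.25% (1.85%). These matches are descriptions of the letters in a window.

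Among the receptors, SQSTM1, NBR1, OPTN and CALCOCO2 rose in all 4 contrasts as deposited, with VER in CWR22Rv1 cells the weakest for each. SQSTM1 (p62, ENSG00000161011, chr5:179806398-179838078, plus strand) was at 207, 744 and 306 FPKM in C4-2B MDVR cells and at 73.9, 271 and 106 FPKM in CWR22Rv1 cells. APO stood far above the other libraries of each line, with folds of 3.59 and 3.66, while VER gave 1.48 and 1.44. MRNIP, on the opposite strand, overlaps 20.7% of the exonic bases of SQSTM1.

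OPTN (optineurin, ENSG00000123240, chr10:13099449-13138308, plus strand), a receptor for mitochondria and bacteria, was at 2.10, 10.5 and 9.28 FPKM in C4-2B MDVR cells and at 0.505, 2.63 and 0.716 FPKM in CWR22Rv1 cells. APO and VER stood close together in the first line, with folds of 4.82 and 4.26. In the second, APO gave 4.51 and VER 1.35, a value close to the threshold at a low level that became 0.19 on the log2 scale with a pseudocount of 1. NBR1, a partner of p62, was at 32.4, 57.9 and 67.3 FPKM and at 26.5, 51.4 and 35.7 FPKM. CALCOCO2 (NDP52) was at 28.8, 57.7 and 56.7 FPKM and at 24.9, 43.2 and 30.0 FPKM, with 0.26 on the log2 scale for VER in CWR22Rv1 cells, at the threshold, and 0.20 at TPM.

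TAX1BP1, a receptor related to CALCOCO2, was at 118, 117 and 98.9 FPKM in C4-2B MDVR cells and at 37.9, 109 and 54.0 FPKM in CWR22Rv1 cells. It passed no threshold in the first line and rose 2.86-fold with APO and 1.42-fold with VER in the second, where the APO library came to the C4-2B MDVR levels.

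The receptors of mitochondria differed among themselves. BNIP3, a hypoxia-inducible receptor on the outer mitochondrial membrane, lay at 28.9 to 81.1 FPKM and fell in 3 contrasts, at -0.39 with APO in C4-2B MDVR cells and at -0.60 and -0.56 in CWR22Rv1 cells, with -0.13 for VER in C4-2B MDVR cells. Its paralog BNIP3L (NIX) rose in 3 contrasts, at 0.74, 0.33 and 0.94, and was at 0.01 with VER in CWR22Rv1 cells. FUNDC1 (ENSG00000069509, chrX:44523639-44543001, minus strand) was at 0.0741 FPKM with DMSO and 0.179 with APO and was listed at 0 with VER in C4-2B MDVR cells, against 9.48, 12.5 and 9.10 FPKM in CWR22Rv1 cells. Its C4-2B MDVR changes rest on values near the pseudocount and no fold is given for the VER library.

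STX17, the protein that helps the finished autophagosome fuse with the lysosome, was at 0.37 and 0.24 on the log2 scale in C4-2B MDVR and at 0.84 and 0.01 in CWR22Rv1 cells.

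**Figure D3:**
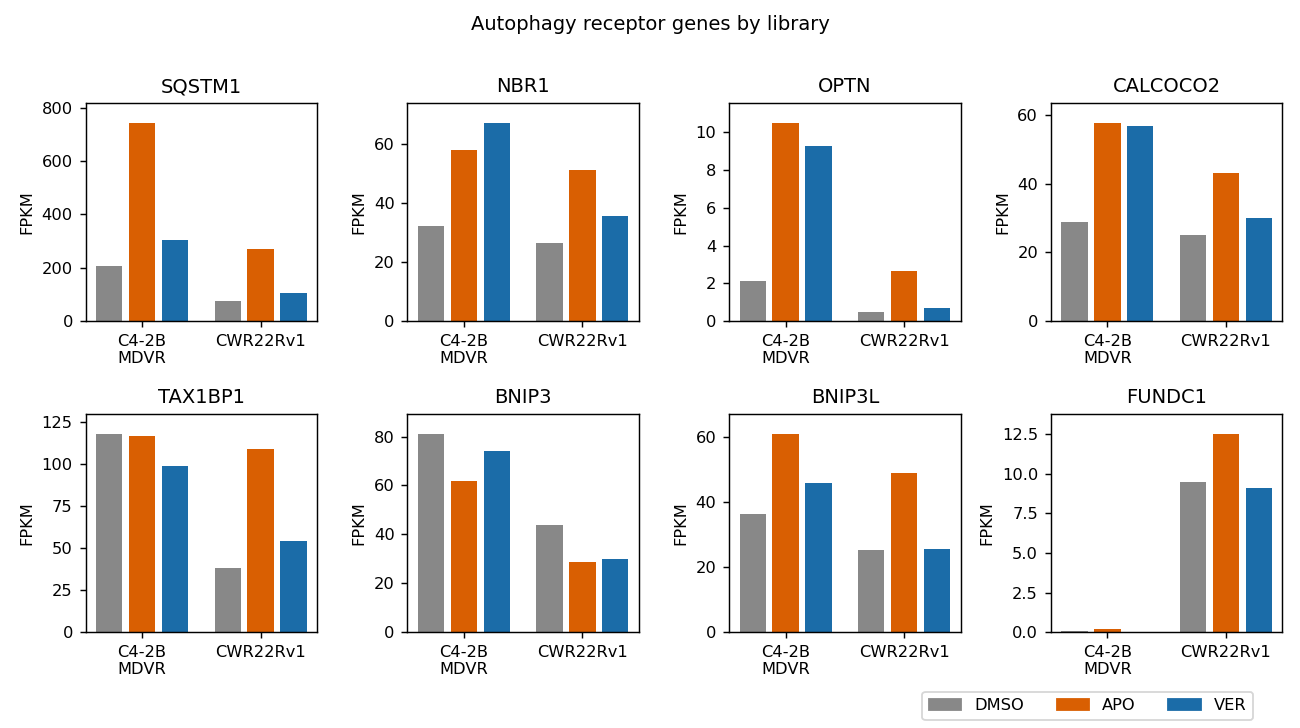
FPKM (linear axes from 0, 1 scale a gene) of the 8 receptor genes in the 6 libraries, each bar 1 library with no replicate, grey for DMSO, orange for APO and blue for VER. SQSTM1 with APO reaches 744 and 271 FPKM, TAX1BP1 stands apart from DMSO mainly with APO in CWR22Rv1 cells, and FUNDC1 is near or at 0 in the C4-2B MDVR libraries.

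The groups can be set side by side by their medians, which are descriptions since genes of a group are not replicates. With APO in C4-2B MDVR cells the medians were 1.56 for ATG8, 0.79 for receptors, 0.74 for the ULK complex, 0.43 for membrane supply, 0.42 for conjugation and 0.13 for PI3K nucleation. With VER they were 1.68, 0.45 (0.56 without FUNDC1), 0.57, 0.42, 0.27 and 0.04 in the same order. In CWR22Rv1 cells APO gave 1.02, 0.95, 0.78, 0.35, 0.69 and -0.03, and VER gave 0.76, 0.35, 0.07, 0.57, 0.08 and 0.02. PI3K nucleation stood last in every contrast. ATG8 genes stood first as deposited, but with GABARAP and AC120057.2 summed their CWR22Rv1 medians were 0.86 with APO, under the receptors, and 0.45 with VER, under membrane supply. The ULK and conjugation groups stood near 0 with VER in CWR22Rv1 cells and above it elsewhere. The median over all 41 genes was 0.45, 0.32, 0.68 and 0.14.

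**Figure D4:**
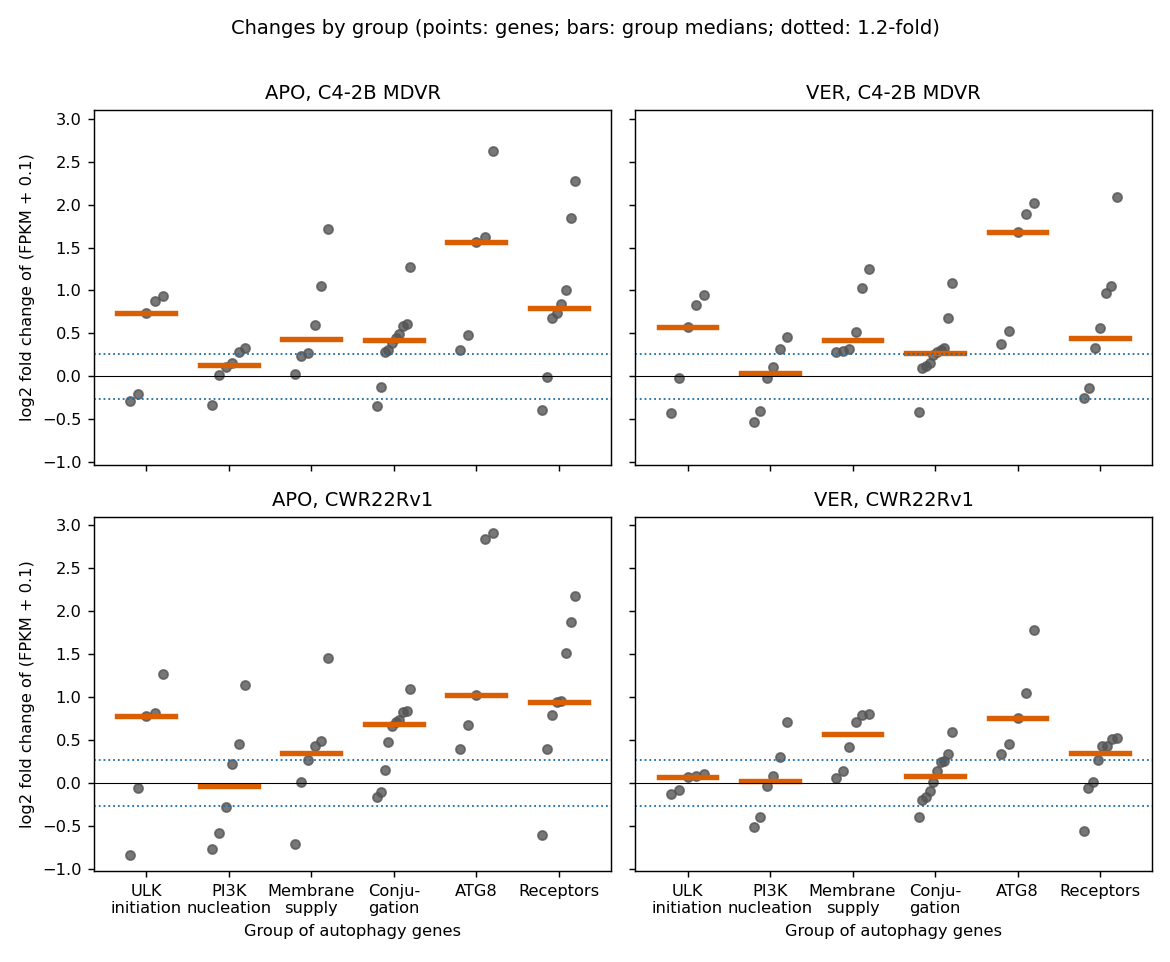
Log2 fold changes against DMSO (vertical axis) of the genes of 6 autophagy groups (points) with the group median over all its genes (bars) and dotted lines at 1.2-fold, 1 panel for each contrast, with FUNDC1 not drawn where it was listed at 0. The ATG8 medians are 1.56, 1.68, 1.02 and 0.76, and the PI3K nucleation medians lie between -0.03 and 0.13.

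APO and VER were given at the same dose and time, so they form 1 pair compared in each line. In C4-2B MDVR cells 5 of the 41 genes were higher by more than 1.2-fold with VER than with APO and 10 were lower, where 28.5% and 32.5% of all genes were. In CWR22Rv1 cells 8 were higher and 22 lower, where 37.3% and 34.5% of all genes were. SQSTM1 was lower with VER in both lines, with VER minus APO at -1.28 and -1.35 on the log2 scale, and so was MAP1LC3B, at -0.94 and -1.80. For OPTN the difference was -0.18 in C4-2B MDVR cells and -1.74 in CWR22Rv1 cells. GABARAPL1 had 0.33 and -1.13, RB1CC1 -0.11 and -1.19, ATG7 -0.16 and -1.29, UVRAG -0.14 and -1.06, and TAX1BP1 -0.24 and -1.01. For these 6 genes APO and VER lay far closer in C4-2B MDVR than in CWR22Rv1 cells, a difference between the lines that could not be tested.

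A smaller set was higher with VER than with APO. ATG2B had VER minus APO at 0.43 and 0.30 in the lines, ULK1 0.27 and 0.76, and ATG9A 0.29 and 0.76. VMP1 was lower with VER in C4-2B MDVR cells, at -0.53, and higher in CWR22Rv1 cells, at 0.44, and PIK3R4 had -0.55 and 0.38. No interval can be given for any of these differences.

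Between the DMSO libraries 7 of the 41 genes (17.1%) were more than 2-fold higher in C4-2B MDVR than in CWR22Rv1 cells, where 19.4% of 20903 genes were, and 4 (9.76%) were lower, where 27.2% were. Neither share was above that of all genes. The 7 were GABARAPL1, OPTN, WIPI1, TAX1BP1, SQSTM1, GABARAP and UVRAG, with log2 differences of 2.41, 1.86, 1.76, 1.63, 1.49, 1.22 and 1.12. Summed with AC120057.2, GABARAP differed by 1.69-fold and was no longer past 2-fold. The 4 were FUNDC1, MAP1LC3A, ATG10 and ATG12, at -5.78, -4.35, -2.23 and -1.28, the first from a level under the pseudocount. The cell line and the enzalutamide in its medium differ together and cannot be told apart.

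**Figure D5:**
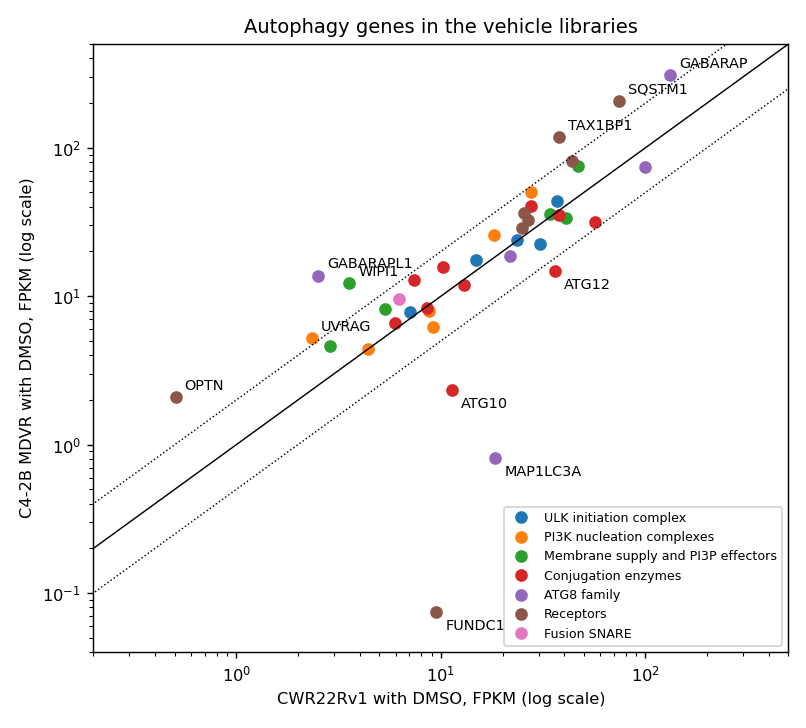
FPKM of the 41 autophagy genes with DMSO in CWR22Rv1 (horizontal, log scale) and C4-2B MDVR cells (vertical, log scale), each point 1 gene in its group's colour, with lines for equal levels (solid) and a 2-fold difference (dotted). GABARAPL1 at 13.8 against 2.50 FPKM and OPTN at 2.10 against 0.505 lie above the upper dotted line, and MAP1LC3A at 0.812 against 18.4 and FUNDC1 lie below the lower.

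Other genes of the pathway were described from 4 further lists of 55 genes that share none of the 41. The lists were chosen with earlier results of these data known, so their medians and counts are descriptions. ATF4, 1 of the regulators, is named in the paper as raised by both inhibitors. Regulators of autophagy gene transcription had the highest median of the 4 lists in each contrast, with 10, 11, 11 and 9 of 14 genes up and 1, 1, 1 and 3 down in the order of the contrasts above (C4-2B MDVR first, APO before VER), and medians of 0.66, 0.93, 0.88 and 0.37. DDIT3 (CHOP), a transcription factor of endoplasmic reticulum and amino acid stress, was at 18.5, 437 and 185 FPKM in C4-2B MDVR cells and at 49.3, 753 and 125 FPKM in CWR22Rv1 cells. DRAM1, a lysosomal membrane protein induced by p53, was at 10.9, 39.3 and 23.7 FPKM and at 2.71, 8.04 and 9.02 FPKM. Both passed 2-fold in all 4 contrasts. TFEB and TFE3, named above with the E-box core, went different ways. TFEB had log2 fold changes of -0.90, -0.002, -0.30 and -0.54, and TFE3 of 0.47, 0.42, 0.95 and 0.27. The related MITF, at 1.52 to 4.28 FPKM, rose in all 4 contrasts, at 1.11, 1.15, 1.21 and 0.39.

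Counts in these lists stand beside 37.7%, 35.6%, 35.6% and 32.1% of all genes up in the same order, and several are near those shares. Other selective receptors gave 8, 7, 7 and 6 of 15 genes up and 2, 3, 2 and 2 down. CCPG1, a receptor for the endoplasmic reticulum, was at 11.2, 85.6 and 54.5 FPKM and at 7.91, 62.0 and 30.2 FPKM, with log2 fold changes of 2.92, 2.27, 2.96 and 1.92. DMSO was its lowest and APO its highest library in each line. That order was also seen for MAP1LC3B, SQSTM1, WIPI1, OPTN and DDIT3, among others, and its share over all genes was not counted. Autophagosome-lysosome fusion genes gave 7, 8, 5 and 5 of 12 up and 1 down in each contrast. Of the other core and accessory genes 13 of 14 were compared, with 6, 7, 6 and 4 up and 6, 3, 5 and 1 down. MAP1LC3B2 passed 2-fold in all 4, at 2.40, 1.34, 3.62 and 1.76, and may share reads with MAP1LC3B. ATG9B, of the same list, fell in all 4, at -1.81, -1.25, -2.93 and -0.91.

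Each library listed 17603 to 19376 genes above 0.1 FPKM. Relative depth, read from the steps of low FPKM values with the C4-2B MDVR DMSO library as 1, was 1.67 in its APO library and 1.15 to 1.28 in the other 4. Mitochondrial genes held 14.8% to 16.4% of FPKM in C4-2B MDVR cells, and in CWR22Rv1 cells 25.7% with DMSO and VER and 10.4% with APO, whose part in the changes with APO was not tested beyond the rescaled values above. All 9 markers of prostate luminal epithelium were at or above 1 FPKM in each library. TP63 and KRT5 of basal epithelium and PECAM1 of endothelium were at 0 in all. Summed markers reached at most 3.78 FPKM for leukocytes, where CD68 alone reached 3.68 FPKM. For fibroblasts the sums were 5.07 to 10.9 FPKM, mainly through COL1A1, with DCN at 0.889 to 1.70 FPKM in CWR22Rv1 cells.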

How the data were processed

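Total RNA of the 6 conditions was made into poly(A) libraries with a stranded kit per the labels, while the paper names an Illumina TruSeq kit, and was sequenced as paired-end reads. According to the submitters' processing notes, the authors used HISAT, Cufflinks and Cuffnorm with GRCh38, and the deposited values are FPKM per gene, scaled between libraries by Cuffnorm. Versions, the annotation release and the use of strand in counting are not given in the sources used here. The tables carry no counts or read totals. The paper's methods give an approximate number of reads that holds for all samples, so the depth of each library was taken only as relative depth from low values, and no interval or detection limit is given.

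Of 60658 identifiers, 57047 were found in GENCODE 29 on GRCh38. Coordinates and overlaps of exons are from GENCODE 29. The 41 genes, the 4 further lists, the markers and 4 motifs were chosen with earlier results of these data known. Fold changes were differences of log2(FPKM + 0.1) over all genes that passed 0.1 FPKM in 1 or more of a line's 3 libraries (for the DMSO libraries of the lines, in at least 1 of the 2), called past 1.2-fold and past 2-fold. With 1 library a condition no test was possible, and nothing says whether further cultures would vary more. All 6 levels are given for genes past 2-fold in any contrast at 1 FPKM or more, for the ATG8 genes and for genes past 1.2-fold in opposite directions in the lines. Levels of some others were added after their values were seen. From the further lists, genes past 2-fold the same way in all 4 contrasts are named. Those of TFEB, TFE3, MITF and ATG9B were added after their values were seen. Promoters are RefSeq windows on GRCh38.p14. Protein sequences were not used here.

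Results were recomputed without a filter, for genes above 1 FPKM, with pseudocounts of 0.01 and 1, after rescaling to a median ratio of 1, to the same sum (TPM) and to the same sum without mitochondrial genes, and with a threshold of 1.5-fold. Sums of MAP1LC3B, GABARAP and GABARAPL1 with a gene that can share their reads, alone and in the ATG8 median, and the motif TGACGTCA were added after the data were seen. The functions were tested on simulated data. Python 3.11.15, pandas 2.3.3, numpy 2.4.6 and matplotlib 3.10.9 were used.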

Additional observations from a re-analysis of the deposited data

Results flagged for a closer look

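PIK3C3 stood out because the same inhibitor went opposite ways in the lines. Its log2 fold change with APO was 0.28 in C4-2B MDVR cells and -0.58 in CWR22Rv1 cells, a difference of 0.86 that was not tested, with 1 library a condition. The C4-2B MDVR value was 0.25 with a pseudocount of 1, 0.26 at a median ratio of 1, 0.13 at TPM and 0.12 without mitochondrial genes in the sum. None of these passed 1.2-fold.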

How the results depend on the processing

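No change past 1.2-fold turned its direction under any alternative run. Of the 64 counts of genes recomputed, 58 stayed within 1.5 times the count as reported, and the other 6 came from the 1.5-fold threshold, which gave 17 higher and 0 lower with APO and 12 higher and 1 lower with VER in C4-2B MDVR, and 8 higher and 0 lower with VER in CWR22Rv1 cells. At that threshold 25.2%, 23.7% and 19.1% of all genes were higher, the last close to the share of the autophagy genes. All but 7 group medians kept their side of 1.2-fold and stayed close. With GABARAP and AC120057.2 summed the ATG8 median with VER in CWR22Rv1 cells was 0.45 in place of 0.76. With a pseudocount of 1 the ATG8 medians in C4-2B MDVR were 1.03 with APO and 1.34 with VER, that of conjugation enzymes with VER was 0.26 (under the threshold), and that of receptors with VER in CWR22Rv1 cells was 0.22. At the same sum without mitochondrial genes the C4-2B MDVR median of conjugation enzymes with APO was 0.26, just under the threshold, and that of membrane supply with APO in CWR22Rv1 cells was 0.20. Of the values of single genes, 36 lost and 10 gained the 1.2-fold call. No paired analysis was possible because each condition had 1 library. Low genes (OPTN, MAP1LC3A, FUNDC1) depended most on the pseudocount, and without counts their counting error is unknown.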
